A study of Homo sapiens with 6 samples.

Results

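The 10 genes examined here encode the cyclins, cyclin-dependent kinases and phosphatase that carry a cell from G1 into S phase, namely CCND1, CCND2, CCND3, CCNE1, CCNE2, CCNA2, CDK2, CDK4, CDK6 and CDC25A. They were chosen by symbol among the 58174 genes listed for A549 cells, an established line of human lung adenocarcinoma. PolyA RNA of parental cells (Ctrl) was compared with that of A549 cells lacking the microRNA gene MIR21 (MIR21-KO), with 3 libraries per group from cells harvested 48 h after seeding. The comparison asks how mRNA levels differ once this abundant oncogenic microRNA is lost. No agent was given to either group. MIR21-KO cells were grown from cells sorted singly once Cas9 and paired guide RNA plasmids had been transfected, whereas Ctrl was the parental population. The sources do not give the number of clones in the MIR21-KO group, so properties of a clone and effects of the deletion cannot be told apart. The study speaks of independent samples and biological triplicates, while the labels do not say whether the libraries of a group came from separate cultures, and p-values measure only the spread between these libraries.

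In G1, growth signals raise the D-type cyclins, which bind CDK4 and CDK6 and start the phosphorylation of the retinoblastoma protein. This frees E2F transcription factors, under which the E-type cyclins and cyclin A accumulate, and these activate CDK2 at the onset of DNA replication. CDC25A removes inhibitory phosphates from CDK2 and other CDKs, and its destruction is a classical checkpoint response. Overexpression of cyclin D1 is common in lung carcinomas, and A549 cells are known to have lost the CDK4 and CDK6 inhibitors of the CDKN2A locus.

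Levels are FPKM, i.e. fragments scaled to gene length and library size, as deposited. They are per length, so comparisons between genes hold as far as the listed gene lengths match the transcripts present. The libraries held 10631667 to 14345209 recovered reads on genes, so that a single read on 1 kb of gene contributed 0.0731 to 0.0930 FPKM. Fold changes are MIR21-KO over Ctrl on the log2(FPKM + 0.1) scale, which understates changes of low genes. They were tested by limma over the 16006 genes whose mean reached 0.5 FPKM, and a gene was called at a false discovery rate (FDR) under 0.01. MIR21 was listed at 0 FPKM in all 6 libraries, as polyA libraries do not capture mature miRNAs, so it does not check the labels. Of the A549 epithelial markers, KRT7, KRT8, KRT18 and KRT19 were at means of 88.3 to 673 FPKM, while EPCAM was at 1.19 FPKM in Ctrl and 0.695 FPKM in MIR21-KO. CDH1, which encodes the junction protein E-cadherin, was called lower (8.18 to 2.86 FPKM) and was 1 of 6 epithelial markers called. Summed levels of 4 leukocyte markers were at most 0.286 FPKM and those of 4 endothelial markers at most 0.0855 FPKM in a library. Those of 4 fibroblast markers were 3.32 to 3.64 FPKM in Ctrl and 3.42 to 4.69 FPKM in MIR21-KO, with COL1A2 at 0 throughout.

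Of the 10 genes, 9 passed the filter on low values and CCND2 did not. Called lower in MIR21-KO cells were 6, namely CCND1, CCND3, CCNE1, CCNA2, CDK2 and CDC25A, whereas 8.38% of all genes tested were called lower. None was called higher by limma, against 7.66% of all genes tested. At an unadjusted limma p under 0.05, 7 had a lower and none a higher mean in MIR21-KO. Voom on recovered reads called 6 lower and none higher. Over all 16006 genes tested, voom called 1678 higher and 1818 lower, and the share at an unadjusted p under 0.05 was not counted. CDK4, CDK6 and CCNE2 were not called. Without Ctrl replicate 1, 2 or 3, or without MIR21-KO replicate 2, 3 of the 9 were called lower, in each case CCND1, CCND3 and CCNE1. Of all genes tested, 396 of 16043, 404 of 16061, 378 of 16035 and 392 of 15957 were called lower in these settings. In the 6 genes called with all libraries, all MIR21-KO values lay below all Ctrl values, which was the case for 25.2% of all genes tested. The median log2 fold change was -0.54 over the 9 genes and -0.017 over all genes tested. In bulk RNA, fewer cells in a phase of the cycle and less RNA per cell cannot be told apart. By flow cytometry, the study reported that MIR21-KO A549 cells accumulated in G1. The part of this in the mRNA levels was not tested.

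**Figure D1:**
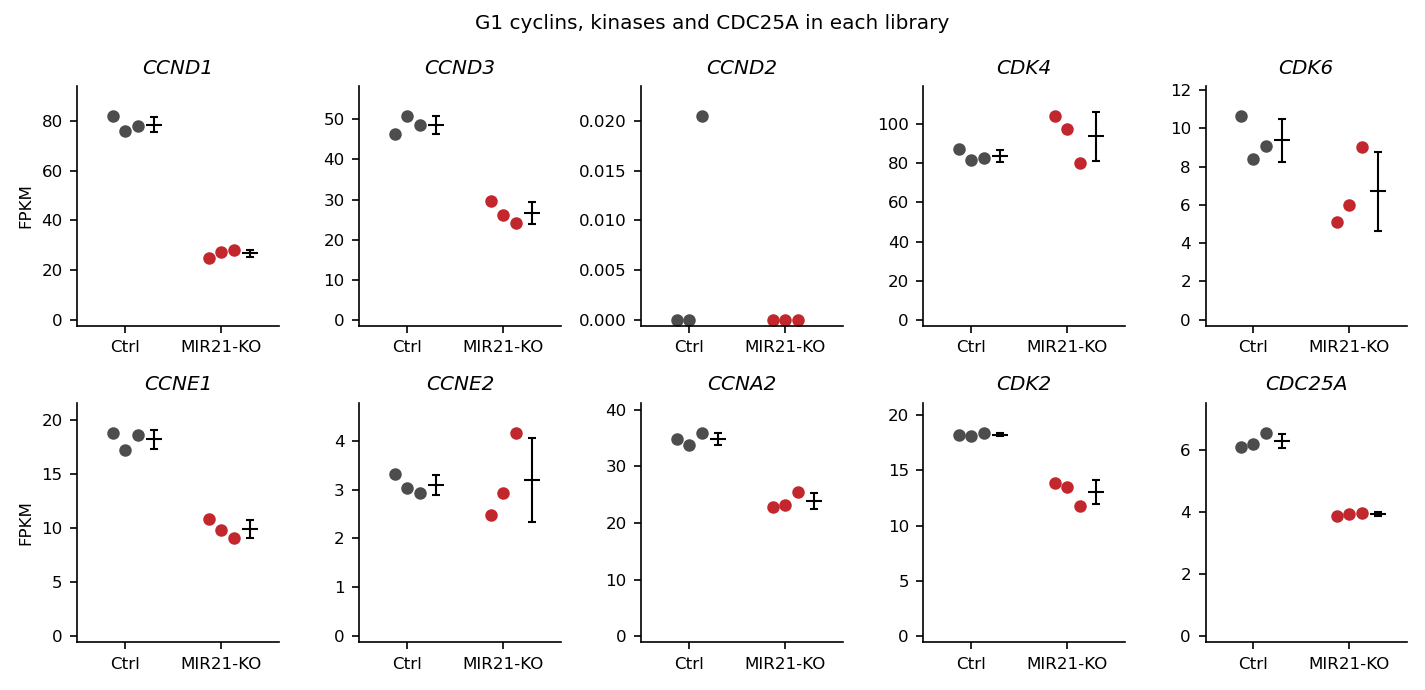
Level in FPKM (y axis, linear and including 0) of each of the 10 genes in the 3 Ctrl and 3 MIR21-KO libraries (x axis), one point per library in the order of replicate number, with mean and SD beside the points except for CCND2. CCND1, CCND3, CCNE1, CCNA2, CDK2 and CDC25A showed no overlap between groups, whereas CDK4, CDK6 and CCNE2 did.

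The D-type cyclins are the sensors of growth signals and partners of CDK4 and CDK6. CCND1 encodes cyclin D1, the D-type cyclin most often overexpressed in carcinomas (ENSG00000110092, GRCh38 chromosome 11, 69641087 to 69654474, plus strand). Its level was 81.9, 75.9 and 78.1 FPKM in Ctrl replicates 1 to 3 and 25.0, 27.3 and 27.9 FPKM in MIR21-KO replicates 1 to 3. The groups were widely separated, and each varied little. The mean thus fell from 78.6 ± 3.02 to 26.8 ± 1.52 FPKM (SD, n = 3 each), i.e. by 1.55 ± 0.076 (SE) on the log2 scale (FDR = 6.44e-05, limma). This left 34.1% of the Ctrl level. LTO1, which overlaps the end of CCND1 on the opposite strand, was at 5.52 to 5.57 FPKM in Ctrl and 4.41 to 5.19 FPKM in MIR21-KO, and its part was not tested. Ranked by mean level among the genes tested, CCND1 moved from 543 to 1734. The call was made under each of the 17 alternatives in the processing, with FDRs of 2.22e-06 to 0.00266.

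CCND3 encodes cyclin D3, another partner of CDK4 and CDK6 (ENSG00000112576, chromosome 6, 41934933 to 42050357, minus strand). It was measured at 46.3, 50.7 and 48.7 FPKM in Ctrl and at 29.8, 26.1 and 24.2 FPKM in MIR21-KO libraries. All MIR21-KO values were below the lowest Ctrl value. The decrease from 48.6 ± 2.19 to 26.7 ± 2.82 FPKM (SD, n = 3 each) amounted to -0.87 ± 0.094 on the log2 scale (SE, limma FDR = 0.00113). The call stood when any single library was left out, with FDRs of 0.000837 to 0.00993.

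CCND2, the gene of cyclin D2 (ENSG00000118971, chromosome 12, 4273772 to 4305350, plus strand), had 2 reads in Ctrl replicate 3, worth 0.0204 FPKM, and no read in the other 5 libraries. A count of 0 allows up to 3 reads, which for this gene is 0.0308 to 0.0390 FPKM in those libraries by counting error alone. No difference of CCND2 was detectable at this depth, and it was not tested.

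Summed per library, the D-type cyclins came to 128, 127 and 127 FPKM in Ctrl and to 54.8, 53.4 and 52.1 FPKM in MIR21-KO. Hence the sum differed between the groups by far more than among their libraries. Their composition shifted as well, since CCND1 made up 63.9%, 59.9% and 61.6% of the sum in Ctrl but 45.7%, 51.2% and 53.6% in MIR21-KO. The ratio of CCND1 to CCND3 was 1.62 ± 0.136 (SD, n = 3) in Ctrl and 1.01 ± 0.159 (SD, n = 3) in MIR21-KO. Sums and shares over the genes are descriptions and were not tested.

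The kinases partnered by these cyclins behaved differently. CDK4 (ENSG00000135446, chromosome 12, 57747727 to 57756013, minus strand) had the highest mean of the 10 mRNAs in either group. It was found at 87.2, 81.8 and 82.6 FPKM in Ctrl and at 104, 97.4 and 79.9 FPKM in MIR21-KO libraries. MIR21-KO replicates 1 and 2 lay above the Ctrl libraries and replicate 3 below them. The log2 fold change of 0.15 ± 0.111 (SE, FDR = 0.335, limma) had a 95% interval from -0.11 to 0.42. The log2 fold change was 0.26 without MIR21-KO replicate 3 (FDR = 0.0208) and 0.074 without MIR21-KO replicate 1 (FDR = 0.618). On the opposite strand, MARCH9 overlaps one end of CDK4 and was at 3.55 to 3.76 FPKM in Ctrl and 8.94, 7.34 and 6.60 FPKM in MIR21-KO, while TSPAN31 overlaps the other end at 6.60 to 7.58 and 6.84 to 8.42 FPKM. Their part in the CDK4 values was not tested.

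CDK6, the other kinase driven by D-type cyclins (ENSG00000105810, chromosome 7, 92604921 to 92836594, minus strand), had 10.6, 8.42 and 9.06 FPKM in Ctrl. In MIR21-KO it had 5.12, 5.98 and 8.998 FPKM. Replicates 1 and 2 were below each Ctrl library, whereas replicate 3 lay among them. CDK6 was not called, as its log2 ratio was -0.51 ± 0.211 (SE, limma FDR = 0.111) with a 95% interval from -1.01 to -0.0091. This rested on a single library. Without MIR21-KO replicate 3 the log2 fold change was -0.74 and CDK6 was called (limma FDR = 0.00657), which made 7 of the 9 genes. In that setting 1815 of 15927 genes tested were called lower. With all libraries and GC and length trends removed it was -0.37 and not called (limma FDR = 0.0171). Over all genes tested, log2 levels of MIR21-KO replicates 1 and 3 correlated at 0.933, against 0.950 to 0.959 between Ctrl libraries. MIR21-KO replicate 2 correlated at 0.957 with replicate 1 and at 0.95 with replicate 3. The part of such library-wide differences in the CDK6 values was not tested.

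CDK4 and CDK6 together came to 97.8, 90.2 and 91.7 FPKM in Ctrl and to 109, 103 and 88.9 FPKM in MIR21-KO, with overlap. CDK6 contributed 9.33% to 10.8% of this sum in Ctrl, against 4.69%, 5.78% and 10.1% in MIR21-KO replicates 1 to 3. The D-type cyclin mRNAs per mRNA of CDK4 and CDK6 were 1.31, 1.40 and 1.38 in Ctrl and 0.502, 0.516 and 0.586 in MIR21-KO. In this ratio the groups were clearly separated. It does not show which mRNA was in excess, because the listed gene lengths need not be those of the transcripts present.

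**Figure D2:**
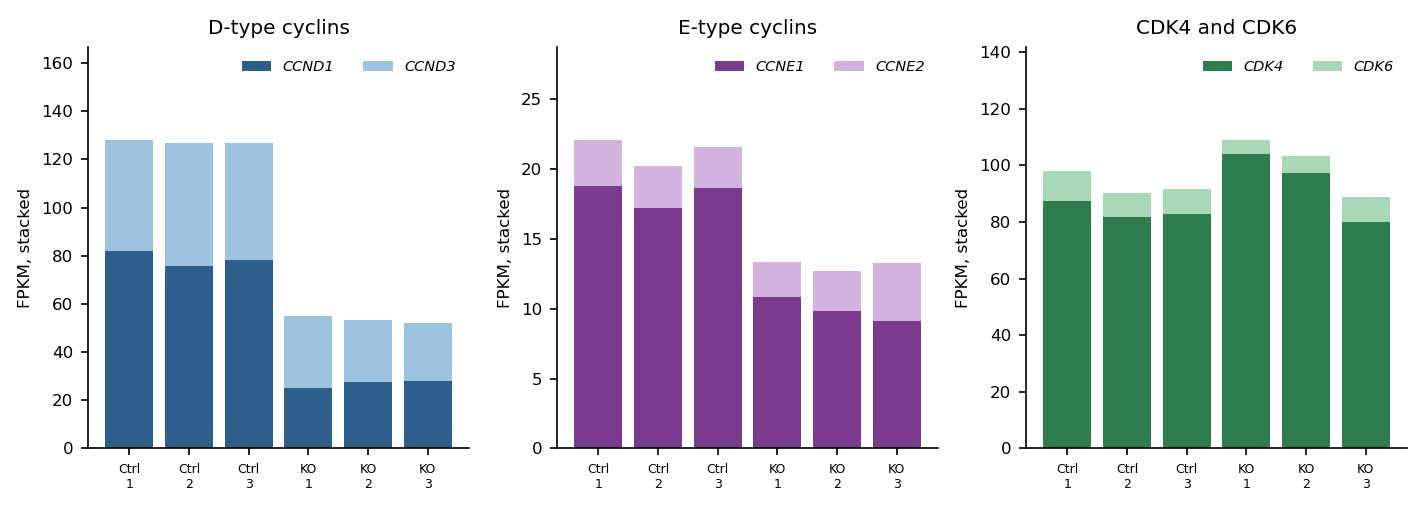
Stacked levels in FPKM (y axis) of the D-type cyclins CCND1 and CCND3, the E-type cyclins CCNE1 and CCNE2, and the kinases CDK4 and CDK6 in each of the 3 Ctrl and 3 MIR21-KO (KO) libraries (x axis). The cyclin sums were lower in each MIR21-KO library, e.g. 52.1 to 54.8 against 127 to 128 FPKM for the D type, while the kinase sums overlapped.

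E-type cyclins activate CDK2 at the end of G1. CCNE1 encodes cyclin E1 (ENSG00000105173, chromosome 19, 29811898 to 29824308, plus strand). Its levels were 18.8, 17.2 and 18.6 FPKM in Ctrl and 10.9, 9.80 and 9.13 FPKM in MIR21-KO libraries. There was no overlap, and the mean fell from 18.2 ± 0.872 to 9.93 ± 0.867 FPKM (SD, n = 3 each). The log2 fold change of -0.87 ± 0.089 (SE, FDR = 0.000861, limma) was called under each of the 17 alternatives, with FDRs of 0.000146 to 0.00839.

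The paralog CCNE2 (ENSG00000175305), encoding cyclin E2 with a similar role, was less abundant at 3.32, 3.02 and 2.93 FPKM in Ctrl. It showed 2.49, 2.94 and 4.16 FPKM in MIR21-KO, where replicate 1 was below and replicate 3 above each Ctrl library. These values rest on 143 to 237 reads per library. INTS8, which overlaps the end of CCNE2 on the opposite strand, was at 6.63 to 7.16 FPKM in Ctrl and 3.79 to 5.13 FPKM in MIR21-KO, and its part in the CCNE2 values was not tested. No difference was detected, the log2 ratio being 0.02 ± 0.193 (SE, limma FDR = 0.961) with a 95% interval from -0.44 to 0.47. Its sign turned with the scaling and with single libraries, being -0.020 with scaling by total reads, -0.022 without Ctrl replicate 3 and -0.19 without MIR21-KO replicate 3.

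The sum of both was 22.1, 20.2 and 21.6 FPKM in Ctrl and 13.3, 12.7 and 13.3 FPKM in MIR21-KO. CCNE1 provided 85.0%, 85.1% and 86.4% of it in Ctrl, but 81.4%, 77.0% and 68.7% in MIR21-KO. Thus CCNE1 stayed the major E-type cyclin mRNA in all 6 libraries, by a smaller margin in MIR21-KO.

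CDK2 is the kinase partner of cyclins E and A (ENSG00000123374, chromosome 12, 55966769 to 55972784, plus strand). Ctrl libraries agreed closely at 18.2, 18.1 and 18.4 FPKM, and MIR21-KO libraries had 13.9, 13.5 and 11.8 FPKM. All MIR21-KO values were lower. The mean fell from 18.2 ± 0.124 to 13.1 ± 1.09 FPKM (SD, n = 3 each), or by 0.48 ± 0.082 on the log2 scale (SE, limma FDR = 0.00576). It was the smallest change among the 6 called genes. Its call was lost without Ctrl replicate 1, 2 or 3 (FDR = 0.0285, 0.0270 and 0.0313) or MIR21-KO replicate 2 (0.0264). It was also lost with no filter on low values (0.0124), without trend or robust fitting (0.0153) and with the replicate block (0.0339). An antisense gene on the opposite strand of CDK2, AC025162.1, was listed at 15.7, 10.4 and 9.19 FPKM in Ctrl and 4.42, 5.06 and 5.19 FPKM in MIR21-KO. The strand setting of the counting is not given in the sources used here, and its part in the CDK2 values was not tested.

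CCNA2 encodes cyclin A2, which takes over CDK2 in S phase and acts on until mitosis (ENSG00000145386, chromosome 4, 121816444 to 121823933, minus strand). It was found at 34.8, 33.8 and 35.9 FPKM in Ctrl and at 22.9, 23.2 and 25.6 FPKM in MIR21-KO libraries. The groups did not overlap. The change from 34.8 ± 1.07 to 23.9 ± 1.46 FPKM (SD, n = 3 each) corresponded to -0.54 ± 0.074 on the log2 scale (SE, limma FDR = 0.00252). CCNA2 lost its call without Ctrl replicate 1, 2 or 3 (FDR = 0.0165, 0.0135 and 0.0187), without MIR21-KO replicate 2 (0.0197) and with the replicate block (0.0203). EXOSC9, which overlaps the end of CCNA2 on the opposite strand, was at 9.28 to 9.93 FPKM in Ctrl and 7.004 to 8.04 FPKM in MIR21-KO, and its part was not tested. Relative to CDK2, the summed mRNA of CCNA2 and both E-type cyclins was 3.08 ± 0.0868 (SD, n = 3) in Ctrl and 2.86 ± 0.376 (SD, n = 3) in MIR21-KO, with overlapping libraries. In contrast to the D-type cyclins and their kinases, this balance of cyclin and kinase mRNA did not separate the groups.

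CDC25A encodes the phosphatase that activates these kinases (ENSG00000164045, chromosome 3, 48157146 to 48188402, minus strand). Its levels were 6.11, 6.21 and 6.55 FPKM in Ctrl and 3.89, 3.95 and 3.99 FPKM in MIR21-KO libraries, from 199 to 369 reads. The groups were separate and the MIR21-KO values nearly equal. On the log2 scale, their SD of 0.0184 was at percentile 1.19 among all genes tested. These values rest on 218, 199 and 213 reads, where counting error alone can exceed this spread. The SD is therefore no measure of how steady the gene is. The mean fell from 6.29 ± 0.234 to 3.94 ± 0.0514 FPKM (SD, n = 3 each), or by 0.66 ± 0.083 on the log2 scale (SE, limma FDR = 0.00189). Its call was lost without Ctrl replicate 1, 2 or 3 (FDR = 0.0117, 0.0122 and 0.0153), without MIR21-KO replicate 2 (0.0143) and with the replicate block (0.0214).

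**Figure D3:**
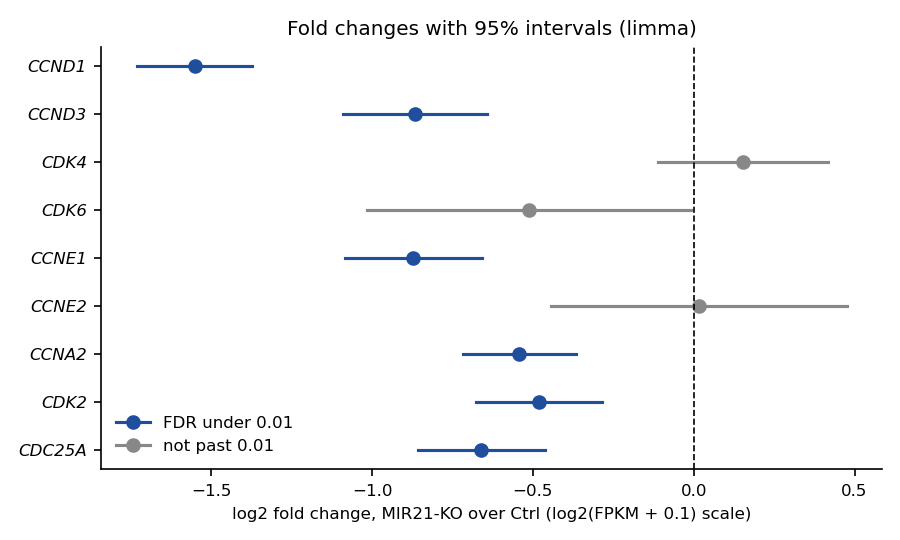
Log2 fold changes of MIR21-KO over Ctrl (x axis, log2(FPKM + 0.1) scale) of the 9 genes tested (y axis), as points with 95% intervals from limma, blue where the FDR was under 0.01 and gray otherwise. Intervals of the 6 called genes lay below 0, from CCND1 at -1.55 to CDK2 at -0.48, while those of CDK4 and CCNE2 included 0.

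By mean level per length in Ctrl, the order was CDK4, CCND1, CCND3, CCNA2, CDK2, CCNE1, CDK6, CDC25A, CCNE2 and CCND2. Of neighbours in this order, the ranges of CDK4 and CCND1 overlapped, as did those of CDK2 and CCNE1. In MIR21-KO the order of means was the same, but CCND1, CCND3 and CCNA2 at 26.8, 26.7 and 23.9 FPKM had come within overlapping ranges. CDC25A now lay within the range of CCNE2. Consequently CDK4 (93.8 ± 12.4 FPKM, SD, n = 3) stood alone at the top in MIR21-KO libraries, whereas its range met that of CCND1 in Ctrl.

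The mRNAs were searched for letters that pair with the seed (bases 2 to 8) of miR-21-5p, the product of the deleted gene, and of let-7a-5p. The let-7 family is known for repressing cell cycle mRNAs, CDC25A and CDK6 among them. Both mature sequences, from RefSeq, are shown 5′ to 3′ with the seed in capitals because the sites below are defined by it.
hsa-miR-21-5p: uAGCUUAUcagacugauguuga
hsa-let-7a-5p: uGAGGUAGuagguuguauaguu

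In the longest annotated 3′ UTR of each gene (GENCODE 29), a match to the whole seed followed by A was counted as an 8mer. Matches to the whole seed alone, or to its first 6 bases followed by A, were counted as heptamers. CDC25A was the only one of the 10 genes with an 8mer for miR-21-5p, at bases 740 to 747 of a 3′ UTR of 1799 bases. Such an 8mer was present in 2.87% of 11644 tested coding genes with a 3′ UTR. CDC25A also held 3 heptamers for let-7a-5p, of which the 2 that match the whole seed are shown, at bases 136 to 142 and 552 to 558. CDK6 held a heptamer for miR-21-5p at bases 7602 to 7608 of 10219. These sites are shown 5′ to 3′ as mRNA-strand DNA, with the matching letters in capitals.
CDC25A, miR-21-5p: tggctgcctgacATAAGCTAaat
CDC25A, let-7a-5p at 136: catgccttaaacCTACCTCccac
CDC25A, let-7a-5p at 552: ttatcccagggaCTACCTCggct
CDK6, miR-21-5p: ctaagcccccaaATAAGCTgcat

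Besides these, CDK6 held 1 heptamer for let-7a-5p, CCND1 held 2, and CCND2 held 3 and 1 for miR-21-5p. A heptamer or 8mer was present in 14.4% of the 11644 genes for miR-21-5p and in 18.0% for let-7a-5p. The 3′ UTRs of CCND3, CCNE1, CCNA2, CDK2 and CDK4 held neither, of 531 bases in CCNE1 and 1007 to 1194 bases in the others, where the median of the 11644 genes was 1370. Thus of the 6 mRNAs called lower, CDC25A had a site for the deleted miRNA, CDC25A and CCND1 had sites for let-7, and CCND3, CCNE1, CCNA2 and CDK2 had no site for either. miRNAs act by reducing the stability or translation of mRNAs, while CDC25A was lower without miR-21-5p (log2 fold change -0.66). Whether any of these sites acted was not tested. A match is a description of the letters and not evidence of binding.

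CCNE1, CCNA2 and CDC25A are textbook E2F-regulated genes and were called lower. CCNE2, an E-type cyclin also placed under E2F above, was not called (log2 fold change 0.02, limma FDR = 0.961). No promoter of CCNE2 was available, and a part of E2F in these changes was not tested. For CCNE1, CCNA2 and CDC25A, the 250 bases before the RefSeq starts (GRCh38.p14) are shown 5′ to 3′ in the direction of the gene. Both strands were searched for the E2F-type letters TTTCCCGC and TTTGGCGC and for TTTGAA, a form of the cell cycle homology region. Other forms of these motifs were not searched. Capitals mark a match, and no matches overlapped. The regions are chr3:48188418-48188667 on the minus strand for CDC25A, chr19:29811741-29811990 on the plus strand for CCNE1 and chr4:121823884-121824133 on the minus strand for CCNA2.
CDC25A: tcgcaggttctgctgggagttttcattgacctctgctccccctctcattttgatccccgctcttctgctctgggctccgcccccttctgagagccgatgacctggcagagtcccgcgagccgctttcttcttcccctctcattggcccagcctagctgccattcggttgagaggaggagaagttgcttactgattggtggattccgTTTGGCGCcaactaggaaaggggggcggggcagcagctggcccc
CCNE1: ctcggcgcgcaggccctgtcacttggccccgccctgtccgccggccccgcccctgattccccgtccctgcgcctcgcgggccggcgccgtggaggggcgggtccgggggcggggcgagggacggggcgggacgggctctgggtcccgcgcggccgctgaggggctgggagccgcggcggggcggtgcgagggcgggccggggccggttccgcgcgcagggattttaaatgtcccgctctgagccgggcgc
CCNA2: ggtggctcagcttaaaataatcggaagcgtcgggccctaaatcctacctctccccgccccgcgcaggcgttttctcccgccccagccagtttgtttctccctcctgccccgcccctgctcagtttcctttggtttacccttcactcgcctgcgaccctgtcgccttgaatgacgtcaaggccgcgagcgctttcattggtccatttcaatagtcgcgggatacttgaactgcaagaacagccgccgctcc

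The promoter of CDC25A held TTTGGCGC once, on the strand of the gene, from 44 to 37 bases before the start (positions -44 to -37). This motif was present in 0.550% of 35116 promoters of this length and in 0.830% of the 13614 of them that belong to genes tested. One or the other E2F-type motif was present in 1.93% and 2.945%, respectively, and TTTGAA in 13.3% and 8.78%. None of the 3 motifs was in the windows shown of CCNE1 and CCNA2, nor in those of CCND3, CDK4 and CDK6, which says only that these letters are not there. The GC content was 81.2% for CCNE1, 60.0% for CDC25A and 58.8% for CCNA2, against a median of 58.0% over all promoters.

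Other genes of the G1/S machinery were compared from the same fit. Among the mitotic cyclins and CDK1, 3 of 4 were called lower and none higher by limma, and likewise by voom. At an unadjusted limma p under 0.05, 4 had a lower and none a higher mean, and the median log2 fold change was -0.54. CCNB1, encoding cyclin B1, which drives entry into mitosis, had 121 to 125 FPKM in Ctrl and 52.4 to 59.4 FPKM in MIR21-KO libraries (log2 fold change -1.13 ± 0.077 SE, FDR = 0.000203, limma). It was called under each of the 17 alternatives. CCNF (-0.59, FDR = 0.00341) and CDK1 (-0.49, FDR = 0.00741) were lower too, and both lost their call without any one of the Ctrl libraries or MIR21-KO replicate 2, CDK1 also without MIR21-KO replicate 1 (for Ctrl replicate 1, FDR = 0.0121 for CCNF and 0.0316 for CDK1). With GC and length trends removed, the log2 fold change of CDK1 was -0.31 (FDR = 0.00404).

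Of 7 genes of the other CDC25 phosphatases and of CDK phosphorylation, 3 were called lower and none higher (median -0.53). At an unadjusted limma p under 0.05, 4 had a lower and 1 a higher mean, and voom called 3 lower and none higher. PKMYT1, the membrane-bound kinase that inhibits CDK1, fell from 13.3 ± 0.802 to 7.58 ± 1.18 FPKM (SD, n = 3 each), with a log2 fold change of -0.82 (FDR = 0.00415, limma). CDC25C, a phosphatase for CDK1 at mitosis, showed a log2 fold change of -0.58 (FDR = 0.00543), and CCNH, the cyclin of the CDK-activating kinase, one of -0.53 (FDR = 0.00451). All 3 lost their call without any one of the Ctrl libraries or MIR21-KO replicate 2, with an FDR of PKMYT1 of 0.0179 without Ctrl replicate 1. CCNH was also not called with GC and length trends removed, where its log2 fold change was -0.35 (FDR = 0.0386). Hence activators and an inhibitor of CDKs were among the lower mRNAs.

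Of 7 CDK inhibitor genes, 4 were tested, and limma and voom each called 1 higher and none lower. At an unadjusted limma p under 0.05, 2 had a higher and none a lower mean. The median log2 fold change was 0.40. The called gene was CDKN2C, encoding p18, an inhibitor of CDK4 and CDK6, which rose from 7.30 ± 0.277 to 11.4 ± 1.77 FPKM (SD, n = 3 each; log2 fold change 0.63 ± 0.123 SE, FDR = 0.00981, limma). The FDR was close to the threshold, and the call was lost under 9 of 17 alternatives, among them leaving out any library other than MIR21-KO replicate 3 (FDR = 0.0403 without Ctrl replicate 1). CDKN2A and CDKN2B were listed at 0 in all 6 libraries.

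Of 13 genes of pocket proteins, E2F and DP factors, 3 were called lower by limma and 4 by voom, and none higher by either (median -0.51). At an unadjusted p under 0.05, 10 had a lower and 1 a higher mean in MIR21-KO. The share of all genes tested at this p was not counted, so these counts do not measure an excess. Those called by limma were E2F5 (-1.28, FDR = 0.000359), a repressor E2F, E2F2 (-1.06, FDR = 0.00268), an activator, and E2F8 (-0.76, FDR = 0.00972), an atypical repressor. E2F8 went from 2.82 ± 0.433 to 1.61 ± 0.0915 FPKM (SD, n = 3 each), and its call was lost under 11 of 16 alternatives, leaving out any single library included. E2F2 lost its call without Ctrl replicate 1 (FDR = 0.0169), Ctrl replicate 3 (0.0175) or MIR21-KO replicate 2 (0.0137), and with the replicate block (0.0205). E2F5 lost its call under none.

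Of 10 genes for the turnover of G1 cyclins, CDC25A and p27, 2 were called lower and 1 higher (median -0.086). SKP2, encoding the ubiquitin ligase subunit that recognizes p27, rose from 8.23 ± 0.608 to 15.6 ± 1.79 FPKM (SD, n = 3 each; log2 fold change 0.91 ± 0.109 SE, FDR = 0.00161, limma). CKS1B, encoding its cofactor for p27, went the other way, from 83.0 ± 4.55 to 51.1 ± 4.397 FPKM (SD, n = 3 each; log2 fold change -0.70, FDR = 0.00211). CUL1, the scaffold of this ligase, was lower with a log2 fold change of -0.46 (FDR = 0.00712). SKP2 lost its call without Ctrl replicate 3 (FDR = 0.0108), without MIR21-KO replicate 2 (0.0122) and with the replicate block (0.0126). CKS1B and CUL1 lost theirs without any one of the Ctrl libraries or MIR21-KO replicate 2 (FDR = 0.0111 and 0.0314 without Ctrl replicate 1). At an unadjusted limma p under 0.05, 1 of the 4 checkpoint kinases acting on CDC25A had a lower and none a higher mean (median -0.22). Limma and voom each called 1 of them lower and none higher. It was CHEK1, whose kinase marks CDC25A for destruction, with 8.01 ± 0.289 FPKM (SD, n = 3) in Ctrl and 4.54 ± 0.395 FPKM (SD, n = 3) in MIR21-KO (log2 fold change -0.81, FDR = 0.00142, limma). The call of CHEK1 was lost without Ctrl replicate 1 (FDR = 0.0103), Ctrl replicate 3 (0.0117) or MIR21-KO replicate 2 (0.0110), and with the replicate block (0.0124).

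As a comparison within the same protein families, 20 transcriptional and orphan cyclins and CDKs, which act outside the G1/S transition or have no settled role in it, were listed and 18 tested. Of these, 1 was called lower and 2 higher, and the median log2 fold change was -0.0094. At an unadjusted p under 0.05, 5 had a lower and 5 a higher mean, and voom called 3 lower and 3 higher. CCNK, the partner of CDK12 and CDK13, was lower (-0.48, FDR = 0.00641), while CCNL2, a cyclin linked to splicing (0.60, FDR = 0.00222), and CCNG1, a p53-responsive cyclin (0.49, FDR = 0.00694), were higher. All 3 lost their call without any one of the Ctrl libraries or MIR21-KO replicate 2, and CCNK also without MIR21-KO replicate 1 (without Ctrl replicate 1, FDR = 0.0335 for CCNK, 0.0152 for CCNL2 and 0.0341 for CCNG1). Among the G1 genes 6 of 9 were called lower, and this difference between lists was not tested.

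**Figure D4:**
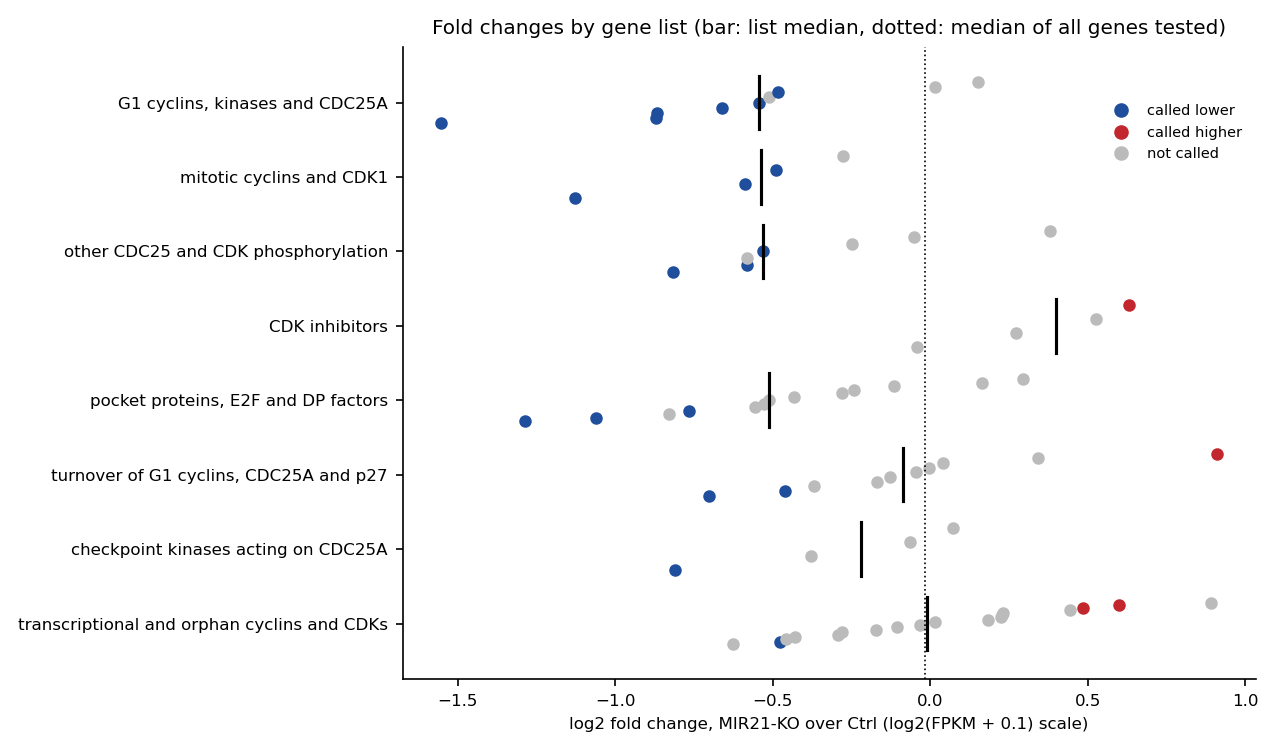
Log2 fold changes of MIR21-KO over Ctrl (x axis, log2(FPKM + 0.1) scale) for the tested genes of 8 lists (y axis), one point per gene, blue if called lower, red if called higher and gray if not called, with a bar at each list's median and a dotted line at the median of all genes tested. Medians were -0.54 for the G1 genes and the mitotic cyclins, 0.40 for the CDK inhibitors and -0.0094 for the transcriptional and orphan cyclins and CDKs.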

How the data were processed

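PolyA RNA-seq of 6 A549 libraries was analysed, with groups and replicate numbers from the sample titles. The authors deposited 1 table of 58174 genes with gene length, FPKM per library and their own fold changes, p-values and FDRs, which were not used. The submitters' processing notes name cutadapt 1.14, HISAT2 2.1.0, SAMtools 1.5, featureCounts 1.5.3, edgeR 3.18.1 and hg38, without their settings. Multi-mapping and strand settings are not given in the sources used here. FPKM times gene length, divided by the worth of 1 read in each library, gave whole reads for 100% of values (tolerance 0.001), in total 10631667 to 14345209 per library. The deposited FPKM correspond to library sizes of 0.950 to 1.03 times these totals.

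For the 16006 genes whose mean reached 0.5 FPKM, log2(FPKM + 0.1) was fitted by limma 3.58.1 under R 4.3.3 (eBayes with trend and robust fitting, no covariate, two-sided), with Benjamini-Hochberg FDRs over all of them. Members and lists were chosen with earlier results of these data known. Named were all 10 genes, MIR21, VMP1, CDKN2A and CDKN2B, and the called genes of each list, at most 3 per direction. Marker genes, and AC025162.1, INTS8, EXOSC9, LTO1, MARCH9 and TSPAN31, which overlap a member, are named as checks. GENCODE 29 matched 57836 of 58174 identifiers (99.4%) and gave coordinates and 3′ UTRs. Promoters and miRNAs were from RefSeq tables (GRCh38.p14), where promoters were present for 6 of the 10 genes. No member's protein sequence was used here.

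Tested on simulated data at these depths, with 200 of 16006 genes changed 2-fold in a MIR21-KO against Ctrl comparison, the procedure recovered 157 with 7 false calls. The simulation gave all genes and both groups the same dispersion and changed only genes with enough reads. In the data, the median SD of log2 levels was 0.125 in Ctrl and 0.209 in MIR21-KO libraries. The simulated counts therefore do not give the error rate in these data. Alternatives were leaving out each library, a replicate block, a pseudocount of 1, no filter or a minimum mean of 5 FPKM, median-ratio scaling, scaling by total reads, voom on recovered reads, no trend or robust fitting, removal of trends on GC content and length, and an FDR of 0.05. Plots were made with matplotlib 3.10.9 under Python 3.11.15.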

Additional observations from a re-analysis of the deposited data

How the results depend on the processing

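Of the 9 genes tested, CCND1 and CCNE1 were called lower under all 17 alternatives. The count of genes called lower among the 9 was 3 to 7 when a library was left out and 2 with the replicate block. It was 5 or 6 under the other alternatives. The same counts over all genes tested were 378 to 1815 when a library was left out and 272 with the replicate block. They were 898 to 2686 under the other alternatives. None of the 9 was called higher under any alternative. Over all genes, 2568 were called, against 784 to 3418 when a library was left out, 651 with the replicate block, 3958 with GC and length trends removed and 5114 at an FDR under 0.05. The cause was not tested, except that an FDR of 0.05 is a looser threshold. The labels do not say whether replicate numbers pair the samples. Deviations from the group mean correlated across genes at -0.171, -0.0177 and -0.0174 for same-numbered libraries. For differently numbered ones they correlated at -0.130 to 0.155. Deviations within a group cancel out, so these values do not settle whether libraries were paired. With the replicate block CCND1 and CCNE1 were called, and CCND3 had an FDR of 0.0112 (limma). Of the called genes named from the lists compared, markers aside, only CCNB1 and E2F5 kept their call with it. With GC and length trends removed, the replicate block gave 6 of the 9 and 1763 genes in all. The log2 fold change of CCNE2 was -0.19 to 0.17 when a library was left out, and turned to -0.022 without Ctrl replicate 3, -0.19 without MIR21-KO replicate 3 and -0.020 with scaling by total reads, and none of these was called. Scaling moved the median log2 fold change of all genes between -0.052 and -0.017.

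Depth limits CCND2 (at most 2 reads) and to a lesser degree CCNE2 and CDC25A, with 143 to 369 reads per library. Protein levels, kinase activity and cell cycle phase were not measured in these libraries.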

Other observations

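CDKN1C and CDK18 were below the filter on low values and outside the comparison, and were chosen after their values were seen. CDKN1C, encoding the CDK inhibitor p57, had 3, 2 and 4 reads in Ctrl and 28, 24 and 25 reads in MIR21-KO libraries, or 0.0920 ± 0.0206 and 0.766 ± 0.0257 FPKM (SD, n = 3 each). CDK18, an orphan kinase, had 17, 12 and 23 reads in Ctrl and 63, 55 and 57 reads in MIR21-KO, or 0.202 ± 0.0418 and 0.659 ± 0.0169 FPKM (SD, n = 3 each). In both the MIR21-KO values lay above all Ctrl values. The share of all genes for which this held was not counted. As both genes were picked by their values, this separation is a description only.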
